A study of Mus musculus with 6 samples.

Results

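The 44 genes described here carry interferon signalling and the response to it, read in mouse chemically induced cardiovascular progenitor cells (ciCPCs) at an early and a late passage. They were taken from a list of gene symbols and were found by their Ensembl identifiers among the 53801 genes of the count files, where all 44 were present. The list holds 4 receptor subunits, 8 transcription factors of the STAT and IRF families and 32 response genes. Levels chose none of them, although the list was drawn up with earlier results of these data known.

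Both groups were wild-type ciCPCs whose mixed background came from C57BL/6 and 129J/SvE mice, derived from fibroblasts by chemical reprogramming and expanded from colonies that were picked on day 14. Their medium held the ligands BMP4 and Activin A, the GSK3 inhibitor CHIR99021 and SU5402, which blocks FGF receptors, and the labels name no interferon treatment in either group. The first group was collected at passage 3 and the second at passage 20, with 3 libraries each. Neither the origin of the replicates, nor a shared colony behind the 2 passages, nor a batch is stated in the labels. The p-values therefore measure only the spread between these libraries, which may be technical, and passage cannot be told apart from colony, harvest or batch.

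Interferons are secreted proteins, and cells make those of type I when they sense viral nucleic acid. Type I interferons bind the receptor made of IFNAR1 and IFNAR2, and type II interferon binds the receptor made of IFNGR1 and IFNGR2. Kinases of the JAK family at the receptors then phosphorylate STAT proteins. For type I interferon, STAT2 and IRF9 form part of a complex that binds a promoter element called ISRE, and type II interferon acts mainly through a STAT dimer that binds an element called GAS. The genes switched on in this way block viral entry, translation and replication, sense viral RNA, or feed back on the pathway, and stem and progenitor cells are known to keep some of them on without interferon.

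The libraries held 11387738 to 17721788 counts, and levels are given as CPM, counts scaled to library size with TMM factors. Replicate 3 of passage 20 stood apart from the other libraries. Its counts differed from those of replicates 1 and 2 with a chi-square per degree of freedom of 10.6 and 8.72, against 2.04 between those 2 libraries and 1.75 to 2.63 between libraries of passage 3. Results that rest on it are given with and without it. All 10 markers of cardiac progenitors had counts at both passages, 5 of them higher and 5 lower at passage 20. Their changes were not small, reaching 4.57-fold among the higher and 8.44-fold among the lower. Of 12 leukocyte markers, 5 were at 0 counts in every library, Ptprc, Itgam, Cd3e and Siglech among them, and the list summed to 12.2 to 14.5 CPM at passage 3 and to 10.6 to 12.7 CPM at passage 20. Endothelial markers summed to 23.5 to 27.1 and to 19.6 to 21.7 CPM, with Emcn at 0, but hold genes that moved both ways, Vwf and Erg 4.83-fold and 4.37-fold lower and Pecam1 1.67-fold higher. Fibroblast genes, which mesenchymal progenitors also express, summed to 15595 to 16385 CPM at passage 3 and to 31505 to 37770 CPM at passage 20, with 7 of 8 higher and Thy1 2.30-fold lower. Sums on the TMM scale are no shares of all counts, since all genes summed to 886678 to 896965 CPM at passage 3 and to 1092282 to 1147141 CPM at passage 20. The part of these marker lists in the results below was not tested. In bulk RNA, fewer cells of a type and less RNA per cell cannot be told apart.

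The interferon genes moved in both directions between the passages. Of the 44, 40 had enough counts to be tested, and 17 were higher at passage 20, 6 were lower and 17 did not pass (edgeR's quasi-likelihood test, Benjamini-Hochberg adjusted p under 0.05). Among all 15143 genes tested, 37.0% were higher and 37.3% lower, together 74.3%, while the shares among the 40 were 42.5% higher and 15.0% lower, together 57.5%. The median log2 fold change was 0.23 for the 40 genes and -0.01 for all genes tested. The groups did not overlap in 24 of the 40 genes, 18 higher and 6 lower, against 77.5% of all genes tested, with 38.3% higher and 39.3% lower. At 2-fold or more, 7 of the 40 rose and 1 fell, against 13.4% and 14.3% of all genes tested. Without replicate 3 of passage 20, 14 were higher and 11 lower, where 38.9% and 39.9% of 15701 genes were called, and the median of the 40 was 0.15. With library sizes alone in place of TMM factors the median of all genes moved to -0.34, and the interferon genes were split into 10 higher and 13 lower. Of all 15143 genes, 3528 were higher under that scaling, and the share that was lower is not given here. Under that scaling Ifngr1, Irf5, Irf7, Usp18, Trim25, Oasl2 and Mx2 lost their calls, and Ifnar1, Stat2, Irf9, Dhx58, Cmpk2, Ifitm2 and Dtx3l passed as lower.

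A call held with each library left out in turn for 12 genes that rose and 4 that fell. The genes that rose were Ifnar2, Ifngr1, Ifngr2, Irf1, Irf8, Usp18, Isg15, Ifit1, Rsad2, Bst2, Ifitm1 and Ifitm3, and those that fell were Irf3, Ifit2, Gbp3 and Ifi35. How many of all genes tested kept their calls in this way was not counted, so these 2 counts have no background share. Rsad2 entered the test only through passage 20, as described below.

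**Figure D1:**
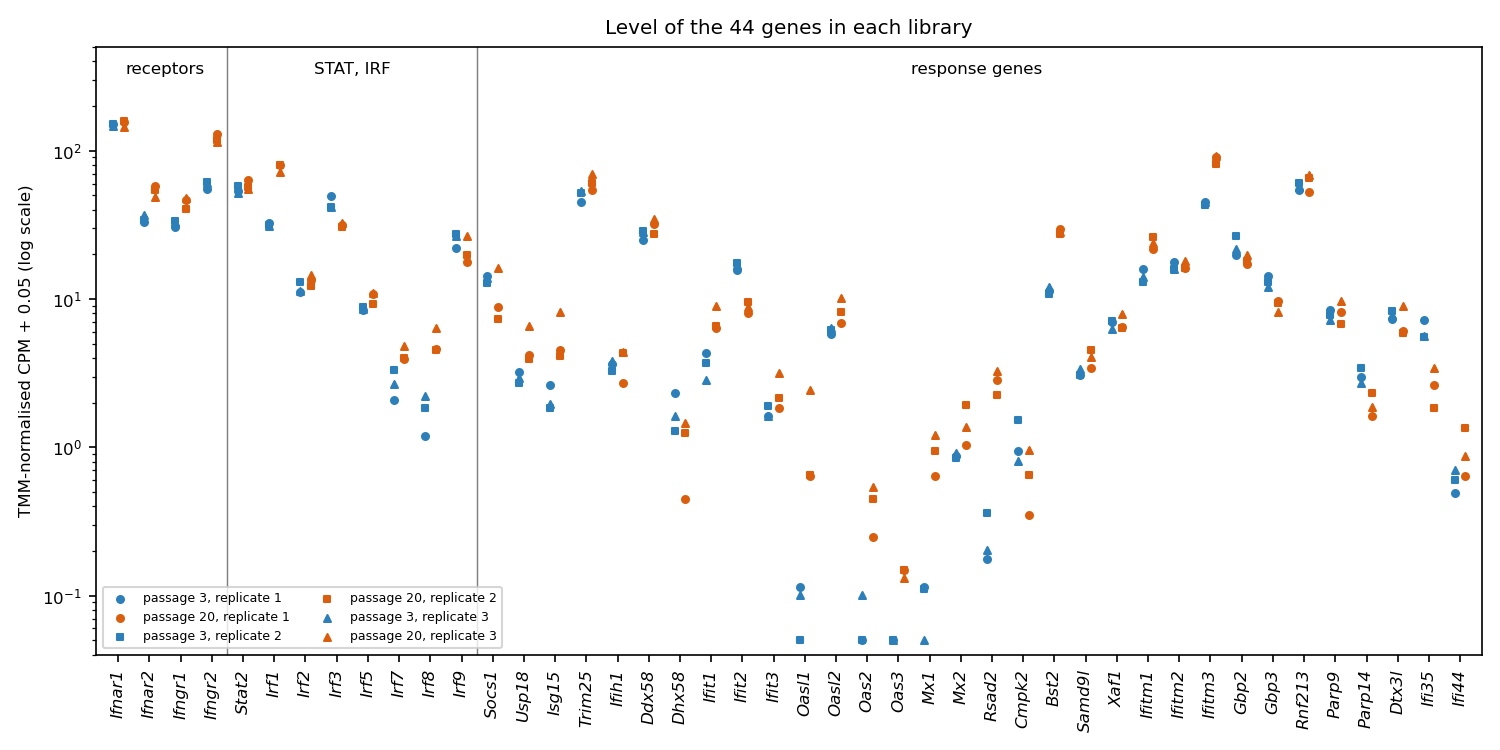
Each point is 1 library, with TMM-normalised CPM plus 0.05 on a log axis for the 44 genes in the order receptors, STAT and IRF factors, and response genes. Passage 3 is blue and passage 20 orange, and the symbols mark replicates 1 to 3. The receptors lie above 30 CPM in all 6 libraries, while Rsad2, Mx1 and Oasl1 lie under 0.4 CPM at passage 3 and higher in all 3 libraries of passage 20.

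Of the 4 receptor subunits, 3 rose and Ifnar1 did not pass. Ifngr2 (ENSMUSG00000022965, chromosome 16, 91547072 to 91565623 on GRCm38), the signalling subunit of the type II receptor, was at 55.2, 61.8 and 60.2 CPM at passage 3 and at 130.3, 117.7 and 114.7 CPM at passage 20. Every library of passage 20 lay above every library of passage 3, and the rise was 2.04-fold (log2 1.03, SE 0.069, adjusted p = 1.65e-07 by edgeR's quasi-likelihood test). Ifnar2 (ENSMUSG00000022971, chromosome 16, 91372783 to 91405589), which carries the main signalling tail of the type I receptor, was at 32.9, 33.9 and 36.6 CPM at passage 3 and at 57.4, 54.1 and 48.8 CPM at passage 20. It rose 1.55-fold (log2 0.63, SE 0.080, adjusted p = 2.84e-05 by edgeR's quasi-likelihood test), again with no overlap between the passages. Ifngr1, the ligand-binding subunit of the type II receptor, went from 30.7, 33.8 and 32.9 CPM to 46.4, 40.7 and 47.8 CPM. That was a 1.39-fold rise (adjusted p = 2.57e-04 by edgeR's quasi-likelihood test), and with library sizes alone it no longer passed (log2 0.14).

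Ifnar1, the partner of Ifnar2, showed no such gap between the passages. Its libraries held 151, 150.1 and 146 CPM at passage 3 and 156, 157 and 144 CPM at passage 20, so the groups overlapped (log2 0.03, SE 0.053, adjusted p = 0.629 by edgeR's quasi-likelihood test). With library sizes alone its log2 change was -0.30 and passed downward, adjusted p = 0.000181 by the same test. Ifnar2, Ifnar1 and Ifngr2 lie in one cluster on chromosome 16, in that order and on the same strand, with 79649 bases between Ifnar2 and Ifnar1 and 39631 bases between Ifnar1 and Ifngr2. Between Ifnar2 and Ifnar1 lies Il10rb (91406164 to 91425834), a receptor subunit shared with type III interferon and no member of the list of 44, which fell 1.72-fold from 19.7 ± 0.245 to 11.4 ± 1.46 CPM (SD, n = 3). The outer genes of the cluster thus rose, while of the genes between them one fell and one did not pass.

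Levels of different genes can be compared only per length, so CPM were divided by the kilobases of merged exons. On that scale Ifngr2 was at 15.7 ± 0.912 and 32.1 ± 2.19 CPM per kilobase (SD, n = 3) at passages 3 and 20, and Ifngr1 at 11.4 ± 0.559 and 15.8 ± 1.34. Ifnar1 was at 25.1 ± 0.453 and 25.7 ± 1.24, and Ifnar2 at 10.4 ± 0.587 and 16.1 ± 1.31. At passage 3 Ifnar1 was the highest receptor subunit per length, and at passage 20 Ifngr2 was. At passage 20 Ifnar2 and Ifngr1 did not differ beyond their spread. All 4 lay above the median of the genes tested, which was 5.35 CPM per kilobase at passage 3 and 5.13 at passage 20.

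Among the 8 STAT and IRF factors, 4 rose, 1 fell and 3 did not pass. Irf1 (ENSMUSG00000018899, chromosome 11, 53770014 to 53778374), a factor that interferon induces and that activates many response genes, was at 32.6, 31.5 and 31.1 CPM at passage 3 and at 80.3, 80.4 and 71.7 CPM at passage 20. The groups lay far apart, and the rise was 2.44-fold (log2 1.29, SE 0.069, adjusted p = 3.13e-08 by edgeR's quasi-likelihood test). Irf8 (chromosome 8, 120736358 to 120756694), best known from myeloid cells, was at 1.14, 1.79 and 2.17 CPM at passage 3 and at 4.55, 4.47 and 6.33 CPM at passage 20. It rose 2.98-fold (adjusted p = 1.37e-04 by edgeR's quasi-likelihood test) on 90 and 168 counts in all. Of the 12 leukocyte markers beside it, 4 were tested: Csf1r, a myeloid receptor gene, was 1.52-fold higher (3.09 and 4.68 CPM), Mrc1, a macrophage receptor gene, was 5.82-fold lower (4.20 and 0.733 CPM), and Cd68 and Lyz2 did not pass. Their part in the level of Irf8 was not tested.

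Irf7, the amplifier of type I interferon production, rose 1.60-fold from a low level. Its libraries were at 2.03, 3.26 and 2.63 CPM and then at 3.86, 3.98 and 4.77 CPM (adjusted p = 0.0115 by edgeR's quasi-likelihood test, and 0.0526 with a log2 change of 0.51 without passage 3 replicate 1). Irf5, which acts below Toll-like receptors, passed only at the threshold. It was at 8.43, 8.75 and 8.49 CPM and at 10.8, 9.25 and 10.9 CPM, 1.21-fold higher (adjusted p = 0.04998 by edgeR's quasi-likelihood test). The call was lost without any of the libraries except passage 20 replicate 2, with log2 changes of 0.21 to 0.27, and the change was -0.06 with library sizes alone. Part of Irf5, 14.1% of its exon bases, overlaps Tnpo3 on the opposite strand, which has far more counts (10975 against 777 in all libraries), and no source used here gives the strand setting of the counting. Irf7 overlaps Phrf1 in the same way over 1.2% of its exon bases.

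Irf3 was the factor that fell. It is the factor that viral sensing activates, present in most cells without induction, and stood at 49.5, 42.0 and 41.9 CPM at passage 3 and at 31.4, 30.6 and 32.2 CPM at passage 20. That was 1.41-fold lower (log2 -0.50, SE 0.083, adjusted p = 2.30e-04 by edgeR's quasi-likelihood test), with no overlap.

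Stat2 and Irf9, which encode parts of the ISRE-binding complex, did not pass. Stat2 was at 53.6, 57.5 and 52.0 CPM and at 63.3, 56.7 and 54.9 CPM (log2 0.10, SE 0.073). Irf9 was at 22.1, 27.4 and 26.7 CPM and at 17.7, 19.9 and 26.7 CPM (log2 -0.24, SE 0.148, adjusted p = 0.173 by edgeR's quasi-likelihood test). In Irf9 the third library of passage 20 matched passage 3 while replicates 1 and 2 lay below it, and without that library the log2 change was -0.45 (adjusted p = 1.03e-04 by edgeR's quasi-likelihood test). Irf9 also passed as lower without a low-count filter (log2 -0.27) and with library sizes alone (log2 -0.56). Irf2, which can repress ISRE promoters, was at 11.1, 13.1 and 11.3 CPM and at 13.5, 12.1 and 14.4 CPM, with overlapping groups. Stat2 and Irf2 had log2 changes of -0.23 and -0.15 with library sizes alone.

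**Figure D2:**
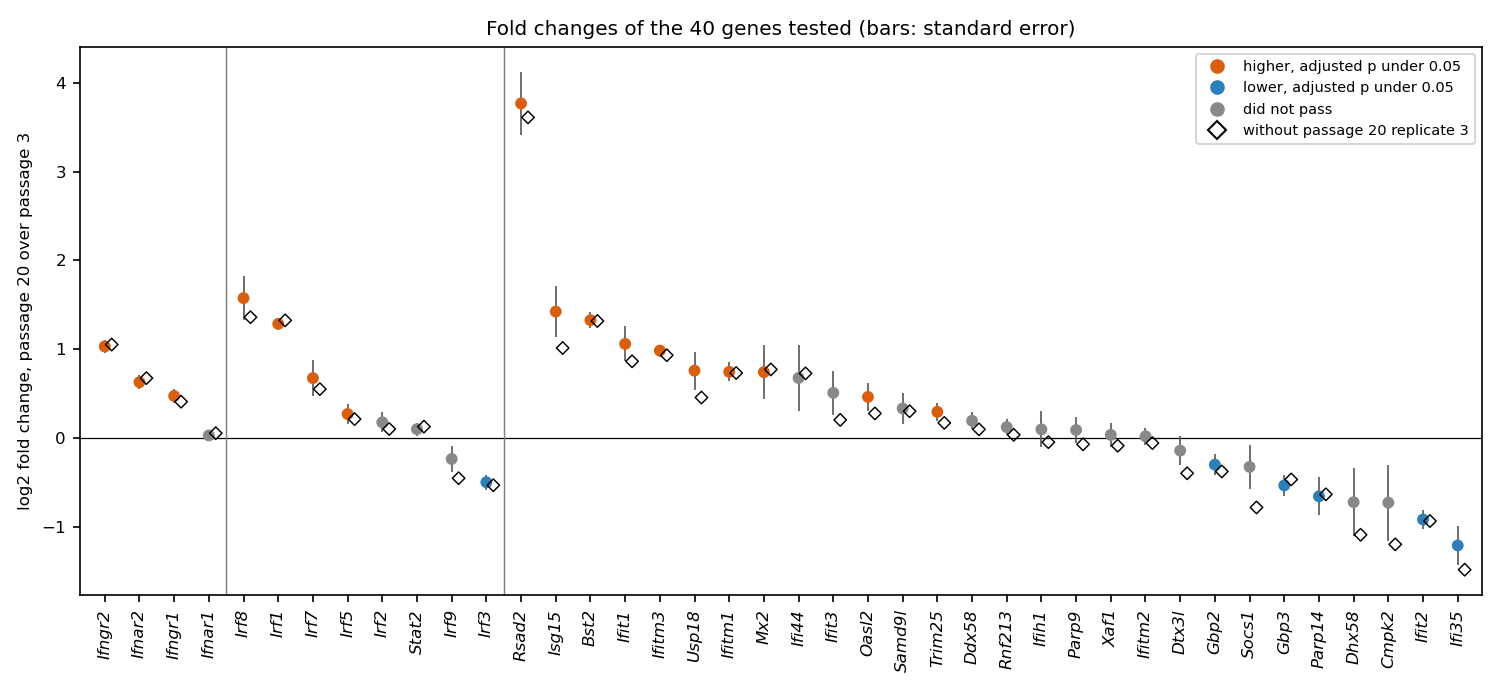
Points are edgeR log2 fold changes of passage 20 over passage 3 with their standard errors for the 40 genes tested, in the 3 groups of the list and sorted within each. Open diamonds give the value without passage 20 replicate 3. Rsad2 stands highest at 3.77, and for 24 of 28 response genes the diamond lies below the point.

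The element through which type I interferon acts was present in promoters of response genes that rose, that fell and that did not pass. Promoter windows of RefSeq on GRCm38.p6 were matched by symbol for 37 of the 44 genes, and the 250 bases before each gene start were searched on both strands for the ISRE core, which is GAAA, any 2 bases and GAAA again and whose matches can overlap each other, and for the GAS element TTCNNNGAA. Usp18, Dhx58, Oas2, Mx1, Mx2, Parp9 and Parp14 had no entry. The ISRE core occurred in 0 of 4 receptor genes, 2 of 8 factor genes and 10 of 25 response genes, against 3.46% of 27025 genes with a window. The GAS element occurred in 6 of the 37, against 8.13% of all genes. A match is a description of the letters in this window and no evidence of binding.

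Shown here are the 150 bases before the RefSeq gene start, 5′ to 3′ on the gene's strand, of 4 response genes that rose, 1 that fell and 1 whose call depended on 1 library. Capitals mark ISRE core matches. Positions are Isg15 chr4:156200819-156200968 (minus strand), Ifit1 chr19:34640739-34640888 (plus), Bst2 chr8:71537473-71537622 (minus), Rsad2 chr12:26456453-26456602 (minus), Gbp3 chr3:142559894-142560043 (plus) and Socs1 chr16:10785537-10785686 (minus).
Isg15: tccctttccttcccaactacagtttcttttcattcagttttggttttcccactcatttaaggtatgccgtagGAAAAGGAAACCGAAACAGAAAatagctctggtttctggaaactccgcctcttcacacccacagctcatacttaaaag
Ifit1: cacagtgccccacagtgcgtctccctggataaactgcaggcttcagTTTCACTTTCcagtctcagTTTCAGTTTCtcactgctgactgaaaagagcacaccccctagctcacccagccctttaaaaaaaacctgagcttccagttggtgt
Bst2: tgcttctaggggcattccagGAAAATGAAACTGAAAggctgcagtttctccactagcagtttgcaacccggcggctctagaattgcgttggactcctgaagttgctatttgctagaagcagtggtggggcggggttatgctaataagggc
Rsad2: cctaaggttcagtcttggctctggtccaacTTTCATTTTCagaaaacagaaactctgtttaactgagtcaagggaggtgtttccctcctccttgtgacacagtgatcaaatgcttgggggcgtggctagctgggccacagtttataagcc
Gbp3: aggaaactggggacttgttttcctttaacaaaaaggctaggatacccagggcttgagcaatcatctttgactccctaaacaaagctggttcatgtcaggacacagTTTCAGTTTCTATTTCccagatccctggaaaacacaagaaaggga
Socs1: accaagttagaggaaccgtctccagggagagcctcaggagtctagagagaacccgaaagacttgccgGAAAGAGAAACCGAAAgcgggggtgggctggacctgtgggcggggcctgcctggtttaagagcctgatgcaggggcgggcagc

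Isg15 holds 3 overlapping matches, Ifit1 and Bst2 hold 2 each, and Rsad2 holds 1, and all 4 genes were higher at passage 20. Gbp3 holds 2 overlapping matches and was lower, and Socs1 holds 2 overlapping matches and did not pass with all libraries. Among response genes with a window, the core was present in 4 of 8 that rose, in 2 of 4 that fell and in 3 of 11 that did not pass, and the other two genes with a window were not tested.

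Irf1 is shown with its GAS element in capitals, chr11:53769864-53770013 on the plus strand, because Irf1 had the highest level per length among the factors at passage 20, at 19.5 ± 1.25 CPM per kilobase (SD, n = 3), and rose.
Irf1: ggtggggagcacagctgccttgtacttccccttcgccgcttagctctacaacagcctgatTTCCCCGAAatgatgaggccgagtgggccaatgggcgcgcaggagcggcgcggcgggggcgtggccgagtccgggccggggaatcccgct

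Of the factor genes with a GAS match, Irf1 and Irf8 rose and Irf2 did not pass, and the other genes with one were Ifnar2 and Bst2, which rose, and Ifit2, which fell. In Bst2 the GAS match overlaps an ISRE match.

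**Figure D3:**
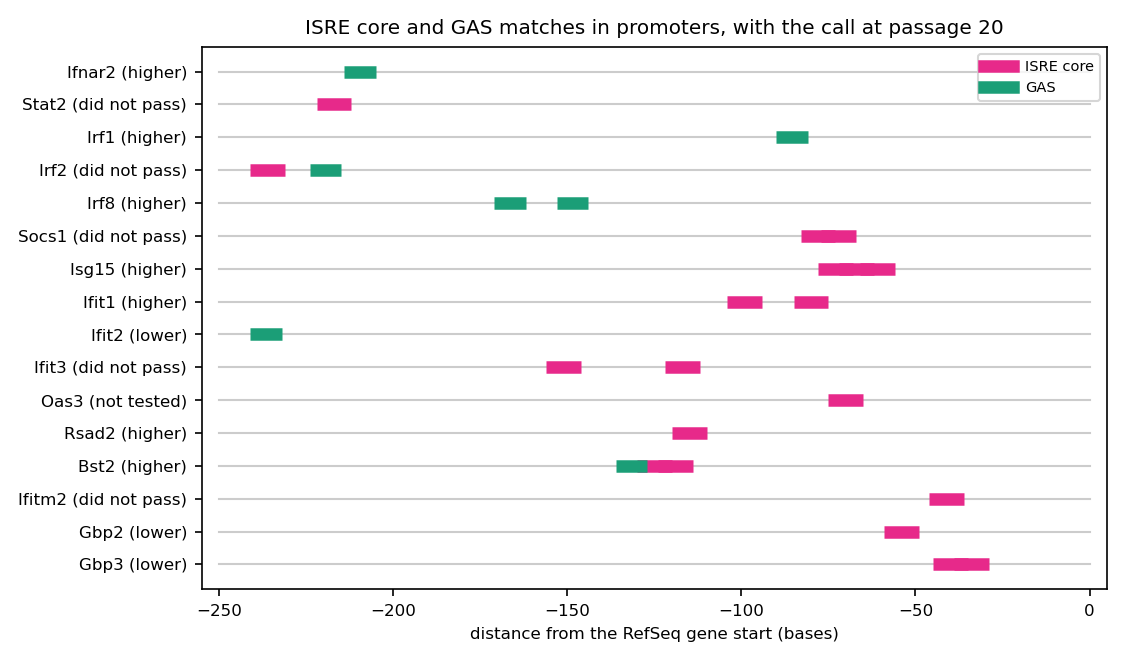
Lines are the 250 bases before the RefSeq gene start (x axis, bases from the start) of the 16 genes with a match, and boxes are matches to the ISRE core (pink) or GAS element (green). The label gives each gene's call, and ISRE matches lie in genes that rose, fell and did not pass alike.

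Of the 32 response genes, 28 were tested, and 10 rose (35.7%), 5 fell (17.9%) and 13 did not pass, with a median log2 change of 0.16. Of all genes tested 37.0% were higher and 37.3% lower, so the share of rises was near that of all genes. Without passage 20 replicate 3, 8 rose and 9 fell, with a median of 0.07. The rises ranged from 1.23-fold to 13.6-fold and the falls from 1.23-fold to 2.31-fold. The 32 genes summed to 340.3, 351 and 346 CPM at passage 3 and to 401, 414 and 476 CPM at passage 20. On the same TMM scale all genes summed to 886678 to 896965 CPM at passage 3 and to 1092282 to 1147141 CPM at passage 20. The higher sum of the 32 genes is therefore no larger share of all counts by itself.

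Rsad2 (ENSMUSG00000020641, chromosome 12, 26442746 to 26456452), the gene of the antiviral enzyme viperin, was close to silent at passage 3. Its libraries held 2, 5 and 3 counts (0.127, 0.308 and 0.152 CPM) at passage 3 and 28, 22 and 39 counts (2.77, 2.19 and 3.21 CPM) at passage 20. All 3 libraries of passage 20 lay above passage 3, 13.6-fold higher (log2 3.77, SE 0.355, adjusted p = 2.67e-06 by edgeR's quasi-likelihood test). Rsad2 entered the test only through passage 20, since no library of passage 3 reached the low-count filter, so a difference was built into its entry. It is the only one of the 40 genes with no library at the filter in a whole passage, and the fit without a filter gave a log2 change of 3.74. Its neighbour Cmpk2, a nucleotide kinase gene that starts 12752 bases away on the opposite strand, did not rise with it. Cmpk2 was at 0.887, 1.48 and 0.758 CPM and at 0.297, 0.597 and 0.904 CPM, with overlapping groups (log2 -0.73, SE 0.428, adjusted p = 0.144 by edgeR's quasi-likelihood test). Without passage 20 replicate 3 Cmpk2 was lower, at a log2 change of -1.20 (adjusted p = 0.0276 by edgeR's quasi-likelihood test). With all libraries Cmpk2 reached the filter in 3 libraries of passage 3 and in 1 of passage 20. Passage 3, where its mean was higher, thus carried its entry, and part of a fall was built in.

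The genes that were nearly silent at passage 3 included 4 that were too low to enter the test. Oasl1, an OAS-like antiviral gene, had 1, 0 and 1 counts at passage 3 and 6, 6 and 29 counts at passage 20. Pooled, that is a ratio of 32.9 (95% counting interval 8.53 to 280.4), and the third library of passage 20 held most of the counts. Without that library the ratio was 15.4 (3.43 to 142). Mx1, an antiviral GTPase gene that is disrupted in C57BL/6 mice, had 1, 1 and 0 counts and then 6, 9 and 14, a ratio of 23.2 (5.88 to 201), or 19.3 (4.48 to 174) without passage 20 replicate 3. Oas2, which makes the messenger that activates RNase L, had 0, 0 and 1 counts and then 2, 4 and 6, a ratio of 19.2 (2.85 to 822), or 15.4 (1.87 to 709) without that replicate. Oas3, its relative, had 0 counts at passage 3, which allows up to 0.0579 CPM over the group, and 1 count in each library of passage 20. Fitted without the low-count filter, Oasl1, Mx1 and Oas2 passed and Oas3 did not (adjusted p = 4.31e-11, 1.08e-07, 0.00168 and 0.115 by edgeR's quasi-likelihood test). The intervals cover counting error only.

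Oasl2 and Mx2, relatives of these genes with more counts, passed the test at smaller ratios, and their calls depended on single libraries. Oasl2, 11006 bases from Oasl1, was at 5.77, 6.16 and 6.37 CPM and at 6.83, 8.15 and 10.1 CPM, 1.38-fold higher (adjusted p = 0.0179 by edgeR's quasi-likelihood test). Its call was lost without passage 3 replicate 1 (log2 0.41), passage 3 replicate 2 (log2 0.46) or passage 20 replicate 3 (log2 0.28). Mx2 was at 0.824, 0.801 and 0.859 CPM and at 0.990, 1.89 and 1.32 CPM, 1.67-fold higher (adjusted p = 0.0429 by edgeR's quasi-likelihood test). It kept its call only without passage 20 replicate 1, and its log2 change without each of the others was 0.49 to 0.77. Oas1b, an OAS gene of the further list given below, did not pass (log2 0.46, adjusted p = 0.262 by edgeR's quasi-likelihood test). Oas1a, Oas1c and Oas1g were too low to be tested. The pooled ratio was 1.37 (0.580 to 3.20) for Oas1a and 0.437 (0.0783 to 1.65) for Oas1c. Oas1g had 0 counts at passage 3 and 3 at passage 20. Members of the Oas, Mx, Ifit, Ifitm and Gbp families have related copies, and how shared reads were divided among them is uncertain.

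Isg15 (ENSMUSG00000035692, chromosome 4, 156199424 to 156200818), the ubiquitin-like modifier that interferon induces, was at 2.60, 1.79 and 1.92 CPM at passage 3 and at 4.45, 4.08 and 8.06 CPM at passage 20. It rose 2.68-fold (log2 1.42, SE 0.283, adjusted p = 0.00102 by edgeR's quasi-likelihood test), with replicate 3 of passage 20 at nearly double the others, and by 1.01 on the log2 scale without that library. Usp18, the protease that removes ISG15 and dampens type I receptor signalling, was at 3.17, 2.65 and 2.88 CPM and at 4.16, 3.88 and 6.50 CPM. It rose 1.69-fold (adjusted p = 0.00783 by edgeR's quasi-likelihood test), or by 0.46 on the log2 scale without replicate 3 (adjusted p = 0.0419 by the same test). Trim25, a ubiquitin ligase that activates the RNA sensor RIG-I, was at 45.3, 51.8 and 53.2 CPM and at 53.9, 60.5 and 70.0 CPM. It passed at 1.23-fold higher (adjusted p = 0.019 by edgeR's quasi-likelihood test), lost the call without passage 3 replicate 1 (log2 0.22) or replicate 2 (log2 0.31), and had a log2 change of -0.03 with library sizes alone.

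Socs1, which blocks JAK kinases and so ends the signal, had libraries of passage 20 on both sides of passage 3. It was at 14.3, 12.7 and 13.7 CPM at passage 3 and at 8.71, 7.26 and 16.0 CPM at passage 20. Replicates 1 and 2 lay below passage 3 and replicate 3 above it, and the change did not pass with all libraries (log2 -0.32, SE 0.250, adjusted p = 0.266 by edgeR's quasi-likelihood test). Without replicate 3 it was lower, at a log2 change of -0.78 (adjusted p = 1.01e-06 by edgeR's quasi-likelihood test).

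The 3 sensors of viral RNA in the cytoplasm did not pass. Ddx58, which encodes RIG-I, was at 25.1, 28.6 and 28.3 CPM and at 31.9, 27.4 and 34.5 CPM (log2 0.19, SE 0.097). It passed only without passage 20 replicate 2 (log2 0.28). Ifih1, which encodes MDA5, was at 3.61, 3.20 and 3.79 CPM and at 2.67, 4.28 and 4.36 CPM. Dhx58, which encodes LGP2 and regulates the others, was at 2.28, 1.23 and 1.57 CPM and at 0.396, 1.19 and 1.40 CPM (log2 -0.72, SE 0.386). Its groups overlapped, and without passage 20 replicate 3 it was lower (log2 -1.09, adjusted p = 0.0141 by edgeR's quasi-likelihood test). Like Cmpk2, Dhx58 owed its entry to passage 3, with 3 libraries at the filter there and 2 at passage 20. Ddx58 and Ifih1 had log2 changes of -0.13 and -0.23 with library sizes alone.

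The IFIT genes, whose proteins bind viral RNA and restrain its translation, lie within one cluster on chromosome 19 and did not move as one. Ifit1 (34640871 to 34650009) was at 4.24, 3.63 and 2.78 CPM at passage 3 and at 6.34, 6.56 and 8.96 CPM at passage 20, 2.08-fold higher (adjusted p = 5.33e-04 by edgeR's quasi-likelihood test). Ifit2 (34550694 to 34576419) was at 15.7, 17.3 and 16.8 CPM and at 8.02, 9.55 and 8.80 CPM, 1.89-fold lower (log2 -0.92, SE 0.107, adjusted p = 1.43e-05 by edgeR's quasi-likelihood test). In both genes every library of one passage lay on the same side of every library of the other. Ifit3, which lies 7112 bases from Ifit2, was at 1.58, 1.85 and 1.57 CPM and at 1.78, 2.09 and 3.12 CPM and did not pass (log2 0.51, SE 0.251), although it did without passage 20 replicate 1 (log2 0.67).

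Per length the membrane antiviral genes Ifitm3, Bst2, Ifitm2 and Ifitm1 were the 4 highest of the response genes at both passages, and all except Ifitm2 rose. Bst2 (ENSMUSG00000046718, chromosome 8, 71534255 to 71537456), which encodes tetherin and holds budding virus at the cell surface, was at 11.2, 10.7 and 12.0 CPM at passage 3 and at 29.8, 27.5 and 28.2 CPM at passage 20. The rise of 2.51-fold was much larger than the spread in either group (log2 1.33, SE 0.088, adjusted p = 1.61e-07 by edgeR's quasi-likelihood test). Ifitm3 (ENSMUSG00000025492, chromosome 7, 141009586 to 141010770), which blocks viral entry at endosomes, was at 45.2, 43.0 and 45.2 CPM and at 90.1, 81.5 and 92.3 CPM. It rose 1.98-fold (log2 0.98, SE 0.067, adjusted p = 1.87e-07 by edgeR's quasi-likelihood test).

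Ifitm1, a relative at the plasma membrane, was at 15.9, 12.9 and 14.0 CPM and at 21.8, 26.1 and 23.8 CPM, 1.68-fold higher (adjusted p = 6.98e-05 by edgeR's quasi-likelihood test). Ifitm2, whose gene starts 11234 bases from that of Ifitm1, did not pass, at 17.8, 15.9 and 16.0 CPM and at 16.0, 16.1 and 18.1 CPM (log2 0.02, SE 0.096, and -0.31 with library sizes alone). Of its exon bases, 40.9% overlap Gm45717 on the same strand, which had 0 counts, and reads there may have been left uncounted, so the level of Ifitm2 per length is uncertain. Per length Ifitm3 was the highest of the 44 genes at both passages, at 65.6 ± 1.89 and 129.8 ± 8.40 CPM per kilobase (SD, n = 3). Ifitm2 followed at passage 3, at 25.3 ± 1.62, which did not differ beyond the spread from Ifnar1. At passage 20 Ifngr2 and Bst2 came next, Bst2 at 31.5 ± 1.33 after 12.5 ± 0.735 at passage 3, and did not differ beyond their spread.

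Of the 6 genes for guanylate-binding proteins, RNF213 and ADP-ribosylation, 3 fell and 3 did not pass. Gbp3, a guanylate-binding protein gene of the type II response, was at 14.2, 12.9 and 12.0 CPM and at 9.60, 9.35 and 8.06 CPM, 1.45-fold lower (adjusted p = 0.00181 by edgeR's quasi-likelihood test). Gbp2, 47393 bases away on chromosome 3, was at 19.9, 26.4 and 21.7 CPM and at 17.1, 18.1 and 19.8 CPM, 1.23-fold lower (adjusted p = 0.035 by edgeR's quasi-likelihood test). The groups of Gbp2 nearly touched, and its call was lost without passage 3 replicates 2 or 3 or passage 20 replicates 1 or 2, at log2 changes of -0.34 to -0.19, and with DESeq2 (adjusted p = 0.0574). Rnf213, a large ubiquitin ligase gene, was at 54.3, 60.6 and 56.7 CPM and at 53.0, 65.5 and 68.0 CPM. It did not pass except without passage 20 replicate 1 (log2 0.22), and was at -0.21 with library sizes alone.

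Parp14, an ADP-ribosyltransferase gene, was at 2.91, 3.39 and 2.68 CPM and at 1.58, 2.29 and 1.81 CPM, 1.58-fold lower (adjusted p = 0.0162 by edgeR's quasi-likelihood test). The call was lost without passage 3 replicate 2 (log2 -0.57) or passage 20 replicate 1 (log2 -0.55), and with DESeq2 (adjusted p = 0.0728). Parp9 and Dtx3l, whose products form a complex, overlap head to head on chromosome 16, with starts 681 bases apart. Parp9 was at 8.36, 7.76 and 7.18 CPM and at 8.12, 6.76 and 9.70 CPM, and Dtx3l at 7.29, 8.19 and 7.78 CPM and at 6.04, 5.87 and 8.96 CPM. In both genes replicate 3 was the highest library of passage 20 and the groups overlapped. Dtx3l was lower without that replicate (log2 -0.40, adjusted p = 0.0176 by edgeR's quasi-likelihood test), while Parp9 had a log2 change of -0.07. Their exons overlap by 458 bases, so reads there are uncertain.

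Ifi35 (chromosome 11, 101448407 to 101458698), an interferon-induced leucine zipper gene, had the largest fall. It was at 7.16, 5.48 and 5.61 CPM at passage 3 and at 2.57, 1.79 and 3.37 CPM at passage 20, 2.31-fold lower (log2 -1.21, SE 0.218, adjusted p = 4.12e-04 by edgeR's quasi-likelihood test). An antisense gene with 2 counts in all overlaps 16.8% of its exon bases. The remaining response genes did not pass. Samd9l, a translation repressor gene, was at 3.02 to 3.34 CPM and at 3.37 to 4.47 CPM. Xaf1, which promotes apoptosis, was at 6.27 to 7.02 CPM and at 6.36 to 7.81 CPM. Ifi44 was under 1.30 CPM in every library.

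Many of the 28 response genes tested shared one feature at passage 20, which was a high value in replicate 3. That library was the highest of the 3 in 20 of the 28 response genes tested (71.4%) and the lowest in 1 (3.57%), against 39.5% and 39.7% of all 15143 genes tested. Among 47 further response genes tested, outside the list of 44, replicate 3 was the highest in 44.7% and the lowest in 34.0%, near the shares of all genes. The difference in log2 CPM between replicate 3 and the mean of replicates 1 and 2 had a median of 0.29 over the 28 response genes, 0.05 over those 47 and 0.00 over all genes tested. Among the 28 it was largest for Socs1 at 1.00, Isg15 at 0.90, Cmpk2 at 0.88 and Dhx58 at 0.86. Receptors lay the other way, with replicate 3 the lowest in 3 of 4 and a median difference of -0.12. The factors had it highest in 6 of 8 and lowest in 2, with a median of 0.14. In the further list given below it was highest in 75.0% of the negative regulators tested (median 0.28) and in 57.1% of the induction pathway genes (median 0.15). For the kinases, further receptors and factors of that list the share was 37.5% (median 0.03). A high replicate 3 was thus not particular to the response genes.

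The spread between libraries was wider at passage 20, in the response genes and over all genes tested. The median SD of log2 CPM among response genes was 0.12 at passage 3 and 0.26 at passage 20, and over all genes tested it was 0.08 and 0.14. Over the 47 further response genes the median SD was 0.10 and 0.21, so the wider spread was not particular to the 28. At passage 3 no replicate stood out as the highest library, with replicates 1, 2 and 3 the highest in 10, 10 and 8 of the 28 genes. In Bst2 and Ifitm3, which rose, and in Ifit2, which fell, replicate 3 lay close to the others, at differences of -0.02, 0.11 and 0.01.

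**Figure D4:**
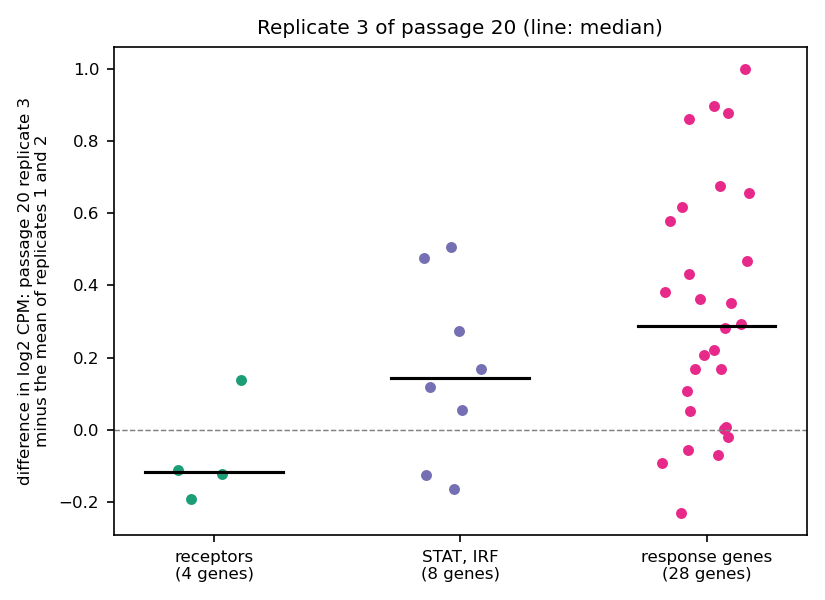
Each point is 1 tested gene, and the y axis gives its log2 CPM in passage 20 replicate 3 minus the mean of replicates 1 and 2, with lines at the medians of -0.12, 0.14 and 0.29 for receptors, factors and response genes. Points above the dashed line are higher in replicate 3, up to 1.00 for Socs1.

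Genes of the pathway outside the 44 were read from a further list of 115. Of 21 interferon ligand genes, 18 had 0 counts in all libraries, Ifnb1 and Ifng among them, and Ifnab, Ifnk and Ifnz had 1 count each. A count of 0 allows a group level of up to 0.0579 CPM at passage 3 and 0.0928 CPM at passage 20. Of the 115, 77 were tested, of which 31 were higher (40.3%), 25 lower (32.5%) and 21 did not pass, with a median log2 change of 0.11. These shares lie near those of all genes tested, 37.0% and 37.3%. Without passage 20 replicate 3, 30 were higher and 30 lower, where 38.9% and 39.9% of all genes were called. Of the 77, 4 had no library of the other passage at the low-count filter. Ifi204 and Phf11d entered through passage 20 and Slfn2 and Ifi27l2a through passage 3, named here after their values were seen. Further genes, that of cGAS among them, reached the filter in all 3 libraries of only one passage.

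Kinases, further receptors and factors gave 2 higher and 3 lower of 8. Jak1, a kinase of both receptor types, rose 1.58-fold from 157 ± 3.01 to 248 ± 15.5 CPM (SD, n = 3). Irf4, a lymphoid factor of the family, fell 6.17-fold from 25.0 ± 2.51 to 3.95 ± 1.83 CPM, and Il10rb fell as given above. In the induction pathway 7 of 14 rose and 5 fell. Ifi204, a DNA sensor gene whose entry through passage 20 alone built in a difference, rose 10.0-fold from 0.316 ± 0.155 CPM, Irf2bp2 1.54-fold and Nfkb1 1.34-fold. Traf3 fell 1.45-fold, Irf2bp1 2.33-fold and the DNA sensor gene of cGAS 2.20-fold. The gene of cGAS reached the filter in 3 libraries of passage 3 and 1 of passage 20, so part of its fall was built in. None of these 9 genes had an adjusted p above 0.00679 by edgeR's quasi-likelihood test.

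Negative regulators gave 4 higher and 2 lower of 8 tested. Socs3, a feedback inhibitor of cytokine receptors, rose 4.76-fold from 21.9 ± 1.27 to 104 ± 15.8 CPM (SD, n = 3), while its relative Socs1 had not passed. The phosphatase gene Ptpn2 rose 1.70-fold and Pias1 1.17-fold, the latter without a call in the absence of passage 20 replicate 3 (log2 0.12). Samhd1 and Ptpn11 fell 1.74-fold and 1.52-fold. Among other response genes 18 of 47 rose and 15 fell. Stat3 rose 2.50-fold from 158 ± 1.67 to 397 ± 5.10 CPM, the exonuclease gene Isg20 6.75-fold and Ifi30 2.23-fold, whereas Slfn9 fell 2.79-fold, Parp12 1.76-fold and Eif2ak2, the RNA-activated kinase gene, 1.49-fold. Among these 11 genes the adjusted p reached 0.0184 at most by edgeR's quasi-likelihood test.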

How the data were processed

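RNA from 3 libraries at passage 3 and 3 at passage 20 had been sequenced. The build GRCm38 and the tools HISAT2 2.0.5, SAMtools, HTSeq and DESeq2 are listed in the submitters' processing notes, without roles. No source used here gives the annotation release or strand setting. Per sample, the authors deposited a file of whole-number gene counts, and also deposited log2 values whose transformation is not stated and which served only as an alternative. Tables of the whole series were read only to check that they hold the same values, which they do.

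GENCODE M21 on GRCm38 matched 53706 of 53801 identifiers. The genes kept by filterByExpr, 15143 in number, were tested with edgeR 4.0.16 in R 4.3.3 (TMM factors, robust quasi-likelihood test, Benjamini-Hochberg adjustment over all genes tested, threshold 0.05). Log2 CPM used a prior count of 2. Members and lists were chosen with earlier results of these data known. All 44 members are named, and each role of the further list gives up to 3 called genes per direction with the smallest adjusted p. Of these, 2 genes are not reported here. The fit was checked on simulated data of 15143 genes for this comparison, where it called 53 of the 62 genes given a 1.5-fold change, 65 of the 70 given 2-fold and all 68 given 4-fold, with 5 false calls. Only 200 genes were changed there, with the same spread set for every gene and no library set apart. These rates therefore need not hold for the data. Alternatives were library sizes only, RLE factors, limma-voom (limma 3.58.1), DESeq2 1.42.0, other filters, each library left out, a replicate block, a threshold of 0.01 and limma on the deposited log2 values.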

Additional observations from a re-analysis of the deposited data

How the results depend on the processing

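Of 597 values for the 40 genes tested under 15 alternative settings, 517 kept their direction and side of the threshold, and 16 genes did so under every setting. With library sizes only, 3528 of all 15143 genes were higher, and 10 interferon genes were higher and 13 lower. Among the receptors Ifnar2 and Ifngr2 stayed higher and Ifnar1 was lower. The factors gave 2 higher and 3 lower, the response genes 6 higher and 9 lower, and the further pathway genes 17 higher and 40 lower. The share of all genes that were lower under that setting is not given here, so the counts of lower genes have no background. That setting reversed Ifnar1 (log2 -0.30), Stat2 (-0.23), Irf2 (-0.15), Irf5 (-0.060), Trim25 (-0.033), Ifih1 (-0.23), Ddx58 (-0.13), Xaf1 (-0.29), Ifitm2 (-0.31), Rnf213 (-0.21) and Parp9 (-0.24). Since it moved the median of all genes to -0.34, small changes are relative to the scaling. No low-count filter gave 2 factors lower and log2 changes of -0.0018 for Ifnar1 and -0.011 for Ifitm2. DESeq2 gave 3 response genes lower. A threshold of 0.01 gave 2 factors higher and 3 response genes lower.

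With each library left out in turn, 13 to 19 interferon genes were higher and 4 to 11 lower. Of the factors 2 to 4 were higher and 1 to 2 lower, of the response genes 8 to 13 were higher and 3 to 9 lower, and 3 receptors were higher and 0 lower in every case. The highest count of lower genes came without passage 20 replicate 3, which turned Ifih1, Xaf1, Ifitm2 and Parp9 to lower values. The log2 changes with a library left out ranged from -0.047 to 0.28 for Ifih1, from -0.087 to 0.090 for Xaf1, from -0.057 to 0.060 for Ifitm2 and from -0.070 to 0.21 for Parp9, and Ifitm2 was also below 0 without passage 3 replicates 2 or 3, and Xaf1 without replicate 3. All of these genes had not passed. Among all genes 5289 to 6103 were higher and 5244 to 6266 lower, and among the further pathway genes 26 to 30 were higher and 22 to 30 lower.

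Libraries that share a replicate number did not deviate together (correlations of 0.014, -0.027 and 0.045 across genes). With 3 libraries per group these values cannot show whether such libraries shared a colony or harvest. A replicate block gave 15 interferon genes higher and 6 lower, and removed the calls of Irf5 and Mx2. Depth limits the genes with few counts, above all Oas2, Oas3, Mx1 and Oasl1.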
